A study of Mus musculus with 6 samples.

Results

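The genes described here are 34 genes of the unfolded protein response of the endoplasmic reticulum. This organelle is abbreviated ERet here, since ER stands for estrogen receptor in this field. The genes were measured in luminal mammary epithelial cells (MECs) of mice with floxed or wild-type Runx1. Members were listed by name and role, though with earlier results of these data known. They are chaperones, disulfide isomerases, stress sensors, degradation genes and translocation genes that the response is known to regulate or to use. All 34 had at least 1 probe set assigned to a single gene symbol on the array, out of 18194 genes with such a probe set, and all 34 were bright enough to be among the 12152 genes tested. When a gene had several probe sets (23 members did), the brightest by its mean over the 6 arrays stood for it.

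RNA came from YFP+ luminal MECs sorted from thoracic and inguinal mammary glands of adult virgin females on a mixed B6/129/FVB background, with 1 array per mouse. Runx1-null cells came from 3 MMTV-Cre;Runx1L/L;R26Y mice and Runx1-WT cells from 3 MMTV-Cre;Runx1+/+;R26Y mice, so Cre and the YFP reporter were present in both groups and the groups differed by design in the floxed Runx1L allele. RUNX1 is a transcription factor of the RUNX family. Cre was driven by the mouse mammary tumour virus promoter, which is active in a subset of MECs. YFP reports recombination at the reporter and not at Runx1 itself. By qRT-PCR, the study reported loss of Runx1 RNA in sorted YFP+ MECs. It found Runx1 RNA significantly reduced in YFP+ luminal progenitors but only slightly in YFP+ mature luminal cells. The study proposes that many of these mature cells might have escaped excision of at least 1 Runx1L copy. By flow cytometry it also reported a change in cell make-up in Runx1L/L females. Among YFP+ luminal cells, the share of mature luminal cells was significantly reduced and that of luminal progenitors was increased. Runx1 RNA did not separate the groups: its brightest probe set read 4082, 3855 and 2015 in Runx1-WT mice 1 to 3 and 3473, 4820 and 2277 in Runx1-null mice 1 to 3, and none of its 6 probe sets was free of overlap. The place of these probe sets in the gene, and so whether they cover the deleted exon, was not examined, and they are no test of the deletion.

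Proteins that enter the secretory route fold in the endoplasmic reticulum with the help of chaperones such as BiP (Hspa5) and of disulfide isomerases. When unfolded protein accumulates, 3 membrane sensors respond: IRE1 (Ern1) splices Xbp1 RNA into the form that encodes an active transcription factor, ATF6 is cut in the Golgi and its freed part enters the nucleus, and PERK (Eif2ak3) slows translation while favouring that of ATF4. XBP1 and ATF6 raise chaperone, degradation and translocation genes through promoter elements named after the response. In mammary epithelium this machinery is best known for serving milk protein secretion, and luminal cells of virgin glands already express Xbp1 strongly. The arrays measured total Xbp1 RNA and cannot tell its spliced form from the unspliced one.

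The classical ERet stress response element (ERSE) is CCAAT, 9 bases of any kind and CCACG, and the promoter windows of the members show how widely it is shared. Windows of 250 bases before to 50 bases after the start of a gene, from RefSeq (GRCm38.p6), were given for 28 members. An ERSE on either strand was found in 9 of the 28 (32.1%), against 37 of all 27025 genes with a window (0.137%). The related ERSE-II, ATTGG, 1 base and CCACG, was found in Dnajb11 and Herpud1, or 7.14% of the 28 against 0.0444% of all genes. The shorter ATF6/XBP1 site, TGACG followed directly by TGG, was found in Sec24d alone among members (3.57% against 0.714% of all genes). ERSE and ERSE-II can share letters, because ATTGG is CCAAT read on the other strand. Atf6, Derl1, Hyou1, Manf, Sec61a1 and Sil1 had no entry. A match describes letters in a window and not a bound site, and many members are known as members partly because of such elements.

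The ERSE copies are given with 5 flanking bases on each side, 5′ to 3′ on the strand that reads CCAAT before CCACG, with these parts in capitals, because the members are also set side by side by these elements in the results that follow.
Hspa5, chr2:34772020-34772048, + strand: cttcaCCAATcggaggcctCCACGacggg
Hsp90b1, chr10:86705528-86705556, + strand: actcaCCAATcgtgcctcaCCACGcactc
Hsp90b1, chr10:86705633-86705661, - strand: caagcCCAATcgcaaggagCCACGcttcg
Calr, chr8:84847070-84847098, + strand: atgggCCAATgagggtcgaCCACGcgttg
Canx, chr11:50325795-50325823, - strand: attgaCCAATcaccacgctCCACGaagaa
Pdia6, chr12:17266486-17266514, + strand: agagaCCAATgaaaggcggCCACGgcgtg
Creld2, chr15:88819515-88819543, - strand: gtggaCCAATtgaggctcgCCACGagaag
Dnajc3, chr14:118937822-118937850, + strand: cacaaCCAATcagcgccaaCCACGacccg
Syvn1, chr19:6046527-6046555, + strand: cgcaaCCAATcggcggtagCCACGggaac
Derl3, chr10:75893237-75893265, - strand: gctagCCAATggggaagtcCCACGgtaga
All of these copies lay before the start of the gene. The nearest, in Syvn1, began 44 bases before it and the farthest, a copy in Hsp90b1, 212 bases before it.

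The ERSE-II copies and the ATF6/XBP1 site are shown in the same way.
Dnajb11, chr16:22857847-22857867, + strand: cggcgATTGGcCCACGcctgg
Herpud1, chr8:94386372-94386392, + strand: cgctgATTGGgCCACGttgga
Sec24d, chr3:123267465-123267482, + strand: gcgccTGACGTGGcacta

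The genotype comparison asked whether YFP+ luminal cells of Runx1-null mice carried more or less RNA of these genes than those of Runx1-WT mice. No member passed the test. At an adjusted p under 0.05 (limma, Benjamini-Hochberg over all tested genes), 0 of the 34 members and 0 of 12152 genes (0%) were called, with a smallest adjusted p of 0.9997 among the members. At an unadjusted p under 0.05, 0 members and 234 genes, or 1.93%, were past the threshold. The log2 difference, Runx1-null minus Runx1-WT, was above 0 for 25 members and below 0 for 9, against 44.6% of all genes above 0. Its median was 0.04 over the members and -0.02 over all genes, and it ran from -0.17 for Derl1 to 0.51 for Derl3.

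The intervals show what size of change these 6 arrays could have missed. For 32 of 34 members the 95% interval of the difference lay within a 2-fold change either way, and for 25 within a 1.5-fold change. Creld2 and Derl3 had intervals that reached beyond 2-fold, that of Creld2 from -0.34 to 1.01 on the log2 scale and that of Derl3 from 0.99 below to 0.99 above its estimate. The members also varied less between mice of a genotype than most genes did, with a median residual SD of 0.18 against 0.27 over all tested genes. This was not particular to the members: lists of other pathway genes had medians of 0.12 to 0.24. The part of intensity in this was not tested. In bulk RNA of sorted cells, fewer cells with a high level and less RNA per cell cannot be told apart. Markers of luminal progenitors had a median difference of 0.20 with 8 of 8 above 0 (Tspan8 at 6.2e-05). Those of mature luminal cells had a median of -0.25 with 1 of 6 above 0. Among mice 1 and 2 of each genotype these medians were 0.22 and -0.78, and between the mice numbered 3 they were 0.04 and 0.45. The part of these markers in the members' values was not tested.

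**Figure D1:**
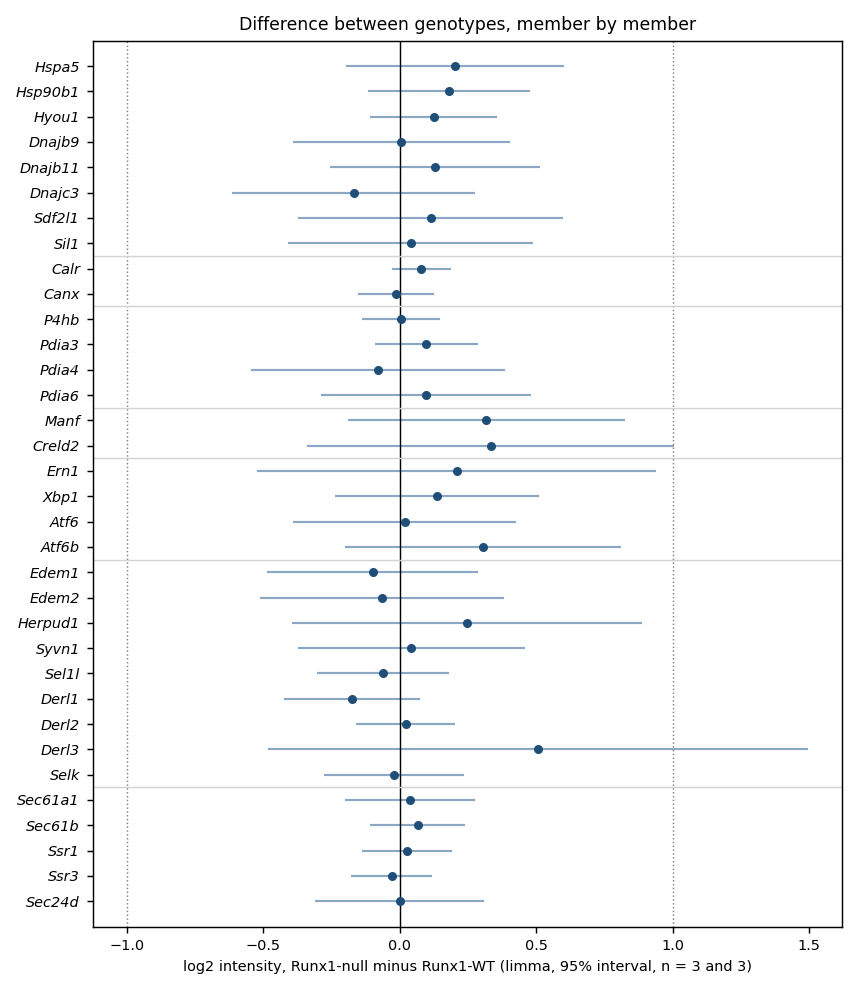
Log2 intensity difference between genotypes (x axis, Runx1-null minus Runx1-WT) for each of the 34 members (y axis, grouped by role), with its 95% interval from limma (3 mice per genotype); dotted lines mark a 2-fold change. Every interval crosses 0, and 32 lie within 2-fold.

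Groups were free of overlap for 3 members, a share of 8.82% against 5.55% of all genes. In 2 of them, Hyou1 and Calr, every Runx1-null mouse was higher, which held for 2.08% of all genes, and in 1, Derl1, every Runx1-null mouse was lower, which held for 3.47%. With 3 mice against 3, an exact two-sided permutation test cannot give a p below 0.1, and it gave 0.1 for each of these.

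Among the luminal Hsp70 and Hsp90 chaperones and their partners, 7 of 8 differences were above 0, with a median of 0.12. Hspa5 encodes BiP, the central Hsp70 of the organelle, which also holds the sensors inactive. It read 5846, 5584 and 7601 across Runx1-WT mice, and 6774, 6221 and 8959 across Runx1-null mice. The groups overlapped, since Runx1-WT mouse 3 was above Runx1-null mice 1 and 2, and the difference was 0.20 ± 0.17 (log2, SE). In each genotype mouse 3 was the highest.

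Hsp90b1 encodes GRP94, the Hsp90 of the organelle. It read 4465, 4654 and 5166 across Runx1-WT mice, and 5365, 4647 and 6279 across Runx1-null mice, a difference of 0.18 ± 0.13 (log2, SE). Runx1-null mouse 2 lay among the Runx1-WT mice.

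Hyou1 encodes a large Hsp70-like protein that acts as a nucleotide exchange factor for BiP. It read 3098, 2977 and 3091 across Runx1-WT mice, and 3162, 3332 and 3506 across Runx1-null mice. The groups did not overlap, but the difference was small, at 0.12 ± 0.10 (log2, SE). Its other probe sets gave 0.22 and 0.21 with overlapping groups.

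Dnajb11, Sdf2l1 and Sil1 encode an Hsp40 partner of BiP, an associated luminal protein and a further exchange factor. Their differences were 0.13 ± 0.16, 0.11 ± 0.20 and 0.04 ± 0.19 (log2, SE). Dnajb9 and Dnajc3 encode the Hsp40 proteins ERdj4 and P58IPK, and had differences of 0.01 ± 0.17 and -0.17 ± 0.19. Dnajc3 was the only member of the group with a difference below 0, and its lowest value, 3208, was that of Runx1-null mouse 1, with Runx1-WT mice at 4001 to 5198.

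Calr and Canx encode calreticulin and calnexin, which hold glycoproteins during folding. Calr read 8936, 9040 and 9398 across Runx1-WT mice, and 9430, 9564 and 9916 across Runx1-null mice. The groups met without crossing, and the difference was 0.08 ± 0.05 (log2, SE). Its other probe sets gave 0.15 and 0.03 with overlapping groups. Canx differed by -0.01 ± 0.06, and its interval, -0.15 to 0.13, was among the narrow ones.

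Of the 4 disulfide isomerases, which form and rearrange the bonds between cysteines, 3 had differences above 0 and the median was 0.05. Pdia3, the partner of calreticulin and calnexin, read 5552, 5528 and 5919 across Runx1-WT mice, and 6026, 5635 and 6554 across Runx1-null mice. Runx1-null mouse 2 was below Runx1-WT mouse 3, and the difference was 0.10 ± 0.08 (log2, SE). P4hb, which encodes the main isomerase PDI, was one of the 2 members closest to 0. It read 9376, 9130 and 8592 across Runx1-WT mice, and 8774, 8770 and 9642 across Runx1-null mice, with a difference of 0.004 ± 0.060 and an interval of -0.14 to 0.15. Pdia6 and Pdia4 differed by 0.10 ± 0.16 and -0.08 ± 0.20.

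Manf and Creld2 encode proteins that cells retain or secrete and that are induced by ERet stress. Manf read 2455, 2683 and 3740 across Runx1-WT mice, and 3404, 3056 and 4585 across Runx1-null mice. Its difference was 0.32 ± 0.21 (log2, SE), with Runx1-WT mouse 3 above Runx1-null mice 1 and 2. Creld2 read 1101, 894 and 1793 across Runx1-WT mice, and 1442, 1339 and 1827 across Runx1-null mice, a difference of 0.33 ± 0.28. For both genes the same mouse stood out among the Runx1-WT mice, and again mouse 3 was the highest of each genotype.

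All 4 genes of the sensors and their transcription factors had differences above 0, with a median of 0.17. That median was -0.08 within the lower animal numbers (mice 1 and 2 of each genotype) and 0.53 between the mice numbered 3. Without Runx1-null mouse 3, the differences of Ern1, Xbp1 and Atf6 were -0.02, -0.03 and -0.04 and that of Atf6b was 0.18. Ern1, the IRE1 kinase and RNase, read 2216, 2296 and 1239 across Runx1-WT mice, and 1684, 1971 and 2929 across Runx1-null mice. Both the lowest and the highest of the 6 values belonged to a mouse 3, in Runx1-WT and Runx1-null mice respectively, and the difference was 0.21 ± 0.31 (log2, SE). Among mice 1 and 2 of each genotype it was -0.31, with both Runx1-null mice lower, and between the mice numbered 3 it was 1.24. The difference between these was not tested. Another Ern1 probe set, with a mean intensity of 250, gave -0.24, and dimmer ones gave 0.29, 0.44 and 0.005, all with overlapping groups.

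Xbp1 read 4928, 5093 and 4656 across Runx1-WT mice, and 4390, 5205 and 6809 across Runx1-null mice. Runx1-null mouse 3 was high, the other Runx1-null mice lay on either side of the Runx1-WT mice, and the difference was 0.14 ± 0.16 (log2, SE). Atf6 read 1821, 2014 and 1714 across Runx1-WT mice, and 1532, 2093 and 2037 across Runx1-null mice, a difference of 0.02 ± 0.17. The groups of Atf6 overlapped over most of their range. Its relative Atf6b read 691, 932 and 832 across Runx1-WT mice, and 1027, 825 and 1193 across Runx1-null mice, a difference of 0.30 ± 0.21, with Runx1-null mouse 2 among the Runx1-WT mice.

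ERet-associated degradation returns misfolded proteins to the cytosol for the proteasome, and its 9 members were split, with 4 differences above 0 and a median of -0.02. Derl1 encodes a channel protein of the retrotranslocation machinery. It read 4020, 4457 and 3882 across Runx1-WT mice, and 3326, 3828 and 3796 across Runx1-null mice, a difference of -0.17 ± 0.11 (log2, SE). The groups did not overlap, by a small margin between Runx1-WT mouse 3 and Runx1-null mouse 2. Its other probe sets gave -0.13, -0.10 and 0.06 with overlapping groups, so the direction depended on the probe set.

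Derl3 is a relative of Derl1 found mainly in secretory cells, and its mean intensity, 79.9, was just above the filter on low values, 73.5. It read 58.2, 41.0 and 108.6 across Runx1-WT mice, and 93.8, 87.8 and 90.4 across Runx1-null mice, a difference of 0.51 ± 0.42 (log2, SE). The Runx1-null mice were alike and the Runx1-WT mice spread to both sides of them. Plasma cells, which express Derl3, cannot be told from luminal cells by this gene. Of 8 plasma cell markers 5 were below the filter, and Jchain (Igj), Irf4 and Sdc1 were above it. Jchain read 127, 156 and 374 across Runx1-WT mice, and 317, 624 and 192 across Runx1-null mice. Irf4 read 146, 173 and 146 across Runx1-WT mice, and 45, 190 and 438 across Runx1-null mice. The differences of Jchain, Irf4 and Sdc1 were 0.78 ± 0.56, 0.003 ± 0.77 and 0.05 ± 0.08 (log2, SE). The part of plasma cells in the Derl3 values was not tested.

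Herpud1, an organizer of the degradation complex, differed by 0.25 ± 0.27 (log2, SE) and reached its highest value, 1474, in Runx1-null mouse 3. Syvn1 and Sel1l encode the ubiquitin ligase HRD1 and its adaptor, and differed by 0.04 ± 0.17 and -0.06 ± 0.10. The mannosidase-like Edem1 and Edem2, which mark glycoproteins for disposal, differed by -0.10 ± 0.16 and -0.07 ± 0.19. Derl2 and Selk (listed as Selenok on the array) differed by 0.02 ± 0.08 and -0.02 ± 0.11.

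The 5 members that carry proteins into or out of the organelle had small differences, from -0.03 to 0.07. Sec61a1 and Sec61b, subunits of the translocation channel, differed by 0.04 ± 0.10 and 0.07 ± 0.07 (log2, SE), and Ssr1 and Ssr3, of the channel-associated TRAP complex, by 0.03 ± 0.07 and -0.03 ± 0.06. Sec24d, a cargo adaptor of COPII vesicles, was the other of the members closest to 0. It read 2664, 2852 and 3016 across Runx1-WT mice, and 2517, 2848 and 3199 across Runx1-null mice, and its interval ran from -0.31 to 0.31.

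**Figure D2:**
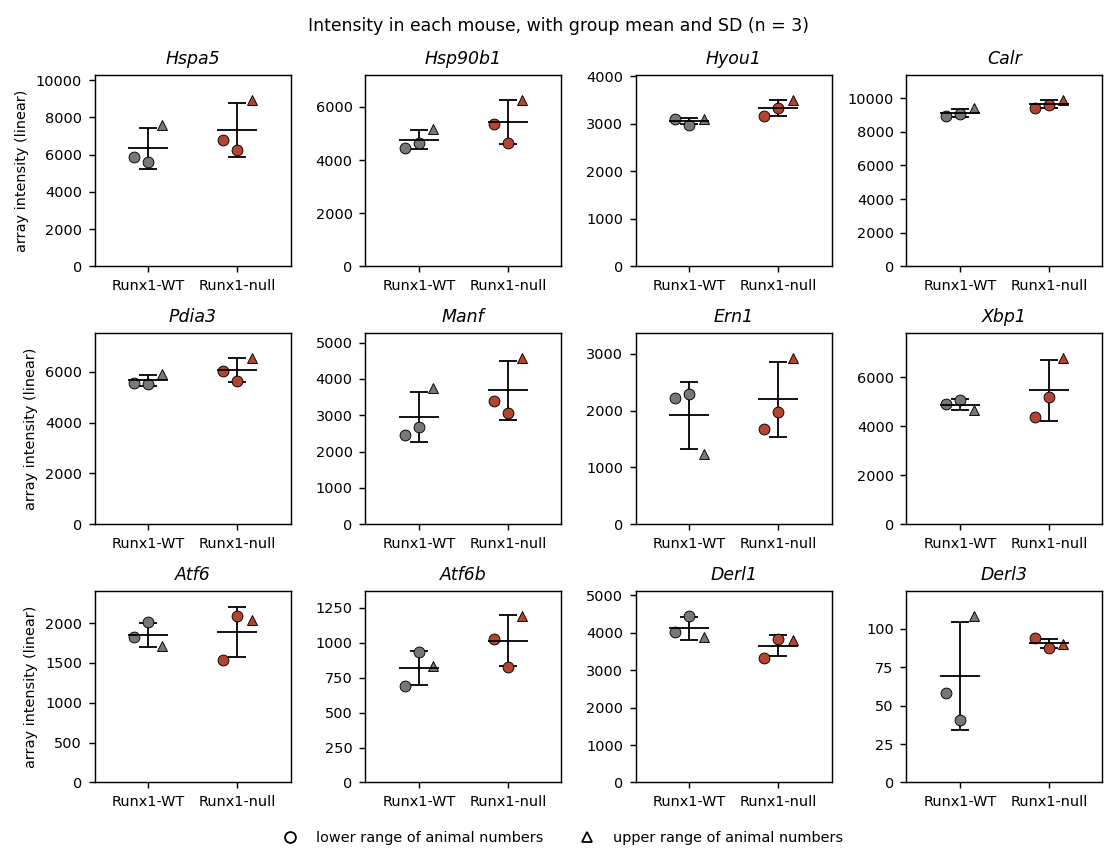
Array intensity (y axis, linear, from 0) of 12 members in each mouse (circles, lower animal numbers; triangles, upper animal numbers), with the group mean and SD (3 mice per genotype). Triangles top both groups for Hspa5, Hsp90b1, Calr, Pdia3 and Manf, and the Runx1-WT triangle is lowest for Ern1, Xbp1, Atf6 and Derl1.

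The members tended to be high or low together in single mice. Runx1-null mouse 3 held the highest of the 6 values for 22 of 34 members (64.7%), against 17.4% of all tested genes, and the lowest for 0, against 24.3%. Among related genes it was highest for 10 of 18 other degradation, 10 of 23 other translocation and glycosylation and 5 of 12 PERK arm genes. The counts were 5 of 23 other folding genes, 6 of 20 other export and retrieval genes and 3 of 11 other stress regulators. Of 8 luminal epithelial markers, 6 were highest in this mouse. Relative to each gene's mean over the 6 mice, the members averaged -0.05, -0.07 and 0.01 (log2) in Runx1-WT mice and -0.09, -0.01 and 0.21 in Runx1-null mice. Runx1-null mouse 1 was the lowest for 13 members (38.2%), against 23.9% of all genes. Without Runx1-null mouse 3 the median difference between genotypes was -0.02 and 15 members were above 0.

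That mouse also stood apart in RNA quality and cell markers. The log2 difference between 3′ and 5′ control probe sets was 0.61 for Gapdh in Runx1-null mouse 3, against 0.46 to 0.55 in the other mice, and 0.74 for beta-actin, against 0.44 to 0.52. Its array had the lowest median intensity, 106, against 129 to 163. Markers of stromal matrix cells, all 7 of which were measured, had their lowest summed intensity there, 4668 against 11777 to 13746 in Runx1-WT mice and up to 12234 in the other Runx1-null mice. Luminal epithelial markers (8 of 8 bright) had their highest sum there, 77410 against 67317 to 72245 in Runx1-WT mice. The part of these in the members' values was not tested. Scaling mattered to the count for single mice: with quantile normalization Runx1-null mouse 3 held the highest value for 22 members and for 27.8% of all genes, and with each array centred on its median for 34 members and 53.3% of all genes.

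**Figure D3:**
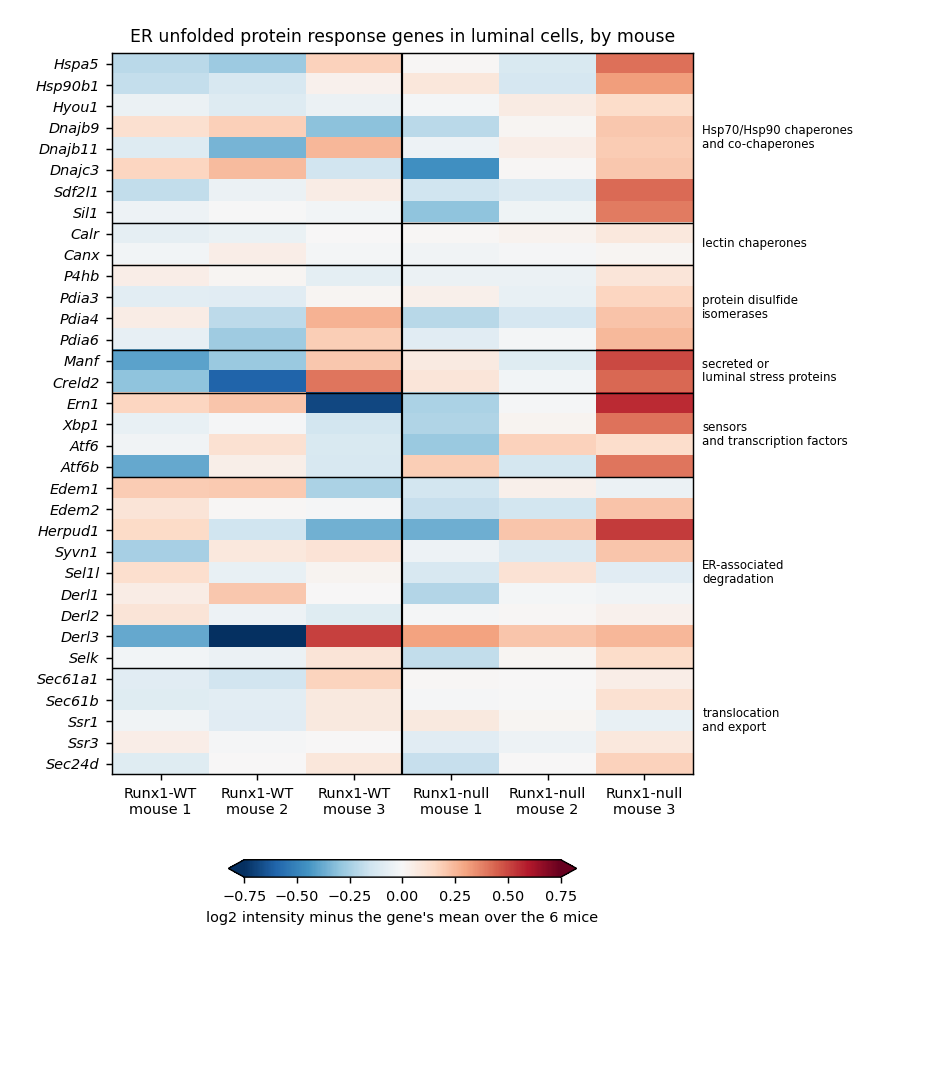
Log2 intensity of each member (rows, grouped by role) in each mouse (columns) minus the member's mean over the 6 mice; colours saturate at 0.75 either way, which Derl3 in Runx1-WT mouse 2 exceeds. The column of Runx1-null mouse 3 is above the mean for most members, and it is the highest of the 6 for 22 of 34.

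The labels also carry animal numbers that fall into a lower range (mice 1 and 2 of each genotype) and an upper range (mouse 3 of each); the labels do not say what the ranges stand for. Read as the effect, with genotype in the same limma fit, the upper minus lower difference was above 0 for 28 of 34 members, against 51.7% of all genes, with a median of 0.15 against 0.01. At an adjusted p under 0.05 it gave 0 members and 0 of all genes (0%). At an unadjusted p under 0.05 it gave 6 members, against 8.85% of all genes: Hspa5, Manf, Creld2, Hsp90b1, Pdia6 and Dnajb11. This reading was chosen after the values were seen. Without Runx1-null mouse 3 the median was 0.06 with 20 members above 0, and without Runx1-WT mouse 3 it was 0.24 with 31 above 0.

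For 15 members (44.1%, against 13.3% of all genes) mouse 3 exceeded both other mice within Runx1-WT and again within Runx1-null mice, and for 0 it was below both in each genotype (12.9% of all genes). The 15 were mainly folding factors and translocation genes: Hspa5, Hsp90b1, Dnajb11, Sdf2l1, Calr, Pdia3, Pdia4, Pdia6, Manf, Creld2, Syvn1, Selk, Sec61a1, Sec61b and Sec24d. Hspa5 was 0.41 higher in Runx1-WT mouse 3 and 0.46 higher in Runx1-null mouse 3 than the mean of the others of its genotype (log2), and its fitted difference was 0.44 (limma, adjusted p = 0.36). Manf was 0.54 and 0.51 higher, and Creld2 0.85 and 0.39 higher.

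Other members ran in opposite directions in the 2 genotypes, mostly in 1 of the 2 possible ways. For 8 members (23.5%, against 16.3% of all genes) mouse 3 was below both others in Runx1-WT and above both in Runx1-null mice: Dnajb9, Dnajc3, P4hb, Ern1, Xbp1, Edem2, Herpud1 and Derl2. The reverse pattern was found in 1 member, Ssr1 (2.94%), against 22.3% of all genes. Ern1 moved most, at -0.86 in Runx1-WT and 0.69 in Runx1-null mice (log2), followed in Runx1-WT by Dnajb9 at -0.46, against 0.30 in Runx1-null mice.

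**Figure D4:**
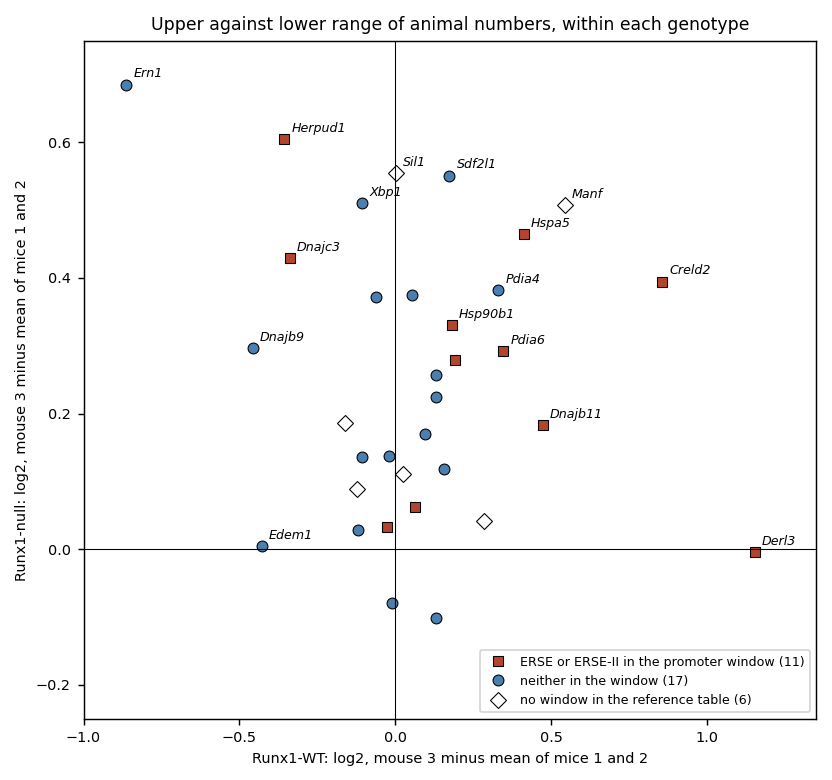
Log2 difference of mouse 3 from the mean of mice 1 and 2 in Runx1-WT (x axis) and in Runx1-null mice (y axis) for each of the 34 members, marked by the promoter elements printed above. Hspa5, Manf, Creld2 and Pdia6 lie far to the upper right, whereas Ern1, Dnajb9, Herpud1 and Dnajc3 lie to the upper left.

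Of the 11 members with an ERSE or ERSE-II in their window, 7 were among the 15 with mouse 3 highest in each genotype and 2 among the 8 that ran in opposite directions. The 11 had a median upper minus lower difference of 0.26 (log2), from 0.002 to 0.62, with 11 of 11 above 0. The 17 with a window but neither element had a median of 0.13, from -0.21 to 0.36, with 12 above 0. The 6 without a window had a median of 0.12, with 5 above 0. Of the 6 members at an unadjusted p under 0.05, 5 carried an element and the remaining one, Manf, had no window. The difference between genotypes had a median of 0.13 in the 11 members with an element, 0.01 in the 17 with neither and 0.04 in the 6 without a window. These groups were set side by side after the values were seen, and no test was made.

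Markers of other cells varied between mice too. Leukocyte markers (5 of 8 above the filter) summed to 7419 in Runx1-WT mouse 3, against 1327 to 2413 in every other mouse, and milk genes (5 of 7) to 20660 in Runx1-WT mouse 3, against 12156 to 15336. The sum of the milk genes and Hspa5 were thus both highest in mouse 3 of the Runx1-WT mice. Single milk genes disagreed: among Runx1-WT mice, Csn2, Csn1s1, Glycam1, Csn1s2a and Wap were highest in mouse 3, and Csn3 and Lalba were lowest there. Csn3, the brightest of them, read 12064, 11938 and 10919 across Runx1-WT mice, and Csn2 read 20.6, 4.3 and 3119. In Runx1-null mice the median milk gene differed by -1.73 (log2) between mouse 3 and the mean of mice 1 and 2. Mature luminal markers (6 of 8 tested) had a median upper minus lower difference of -0.72 (log2) in Runx1-WT and 0.63 in Runx1-null mice. Ern1 and Xbp1 ran in these directions too, whereas the mature luminal marker Cited1 was at -0.50 and -1.24. The medians were 0.72 and -1.53 for basal and myoepithelial markers, and 0.11 and 0.14 for luminal progenitor markers. The part of any of these markers in the members' values was not tested.

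The remaining genes of the pathway, from lists drawn up by function, were looked at in the same fit, where 0 of them were called. Part of the PERK arm list stood apart from the members. Of the 12 genes of this list tested, 10 had differences above 0, with a median of 0.30, and the groups did not overlap for 6 of 12. In all 6 the Runx1-null mice were the higher group, a pattern found in 2.08% of all genes. These were Chac1, Atf4, Trib3, Asns, Ddit3 and Sesn2. Ddit3 differed by 0.32 ± 0.19 and Sesn2 by 0.68 ± 0.22 (log2, SE). The groups overlapped for Eif2ak3, which encodes PERK itself, at -0.01 ± 0.18 (log2, SE). They also overlapped for Nupr1, Ppp1r15b and Cebpb, at 0.01 ± 0.37, 0.02 ± 0.12 and -0.08 ± 0.22, and for Ppp1r15a and Atf3, at 0.17 ± 0.30 and 0.28 ± 0.31. This list was drawn up with earlier results for ATF4 targets in these data known, so its counts are a description. Chac1, an enzyme that degrades glutathione, read 341, 667 and 315 across Runx1-WT mice, and 1955, 1311 and 1377 across Runx1-null mice, a difference of 1.87 ± 0.33 (log2, SE; limma, adjusted p = 0.9997). Every Runx1-null mouse was well above every Runx1-WT mouse.

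Atf4, the transcription factor of the arm, read 5004, 4726 and 5568 across Runx1-WT mice, and 6842, 6572 and 7025 across Runx1-null mice, a difference of 0.42 ± 0.08 (log2, SE). Trib3, a pseudokinase, and Asns, asparagine synthetase, are known ATF4 targets. Trib3 read 585, 758 and 602 across Runx1-WT mice, and 1799, 1119 and 1301 across Runx1-null mice, a difference of 1.10 ± 0.23. Asns read 2583, 2606 and 2553 across Runx1-WT mice, and 3372, 3579 and 3259 across Runx1-null mice, a difference of 0.40 ± 0.10. ATF4 and these targets can also be raised by kinases other than PERK. Atf4 was highest in mouse 3 of each genotype, as Hspa5 was, and Chac1, Trib3 and Asns were not. The median of the list was 0.16 without Runx1-null mouse 3, 0.09 within the lower animal numbers and 0.50 between the mice of the upper ones.

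**Figure D5:**
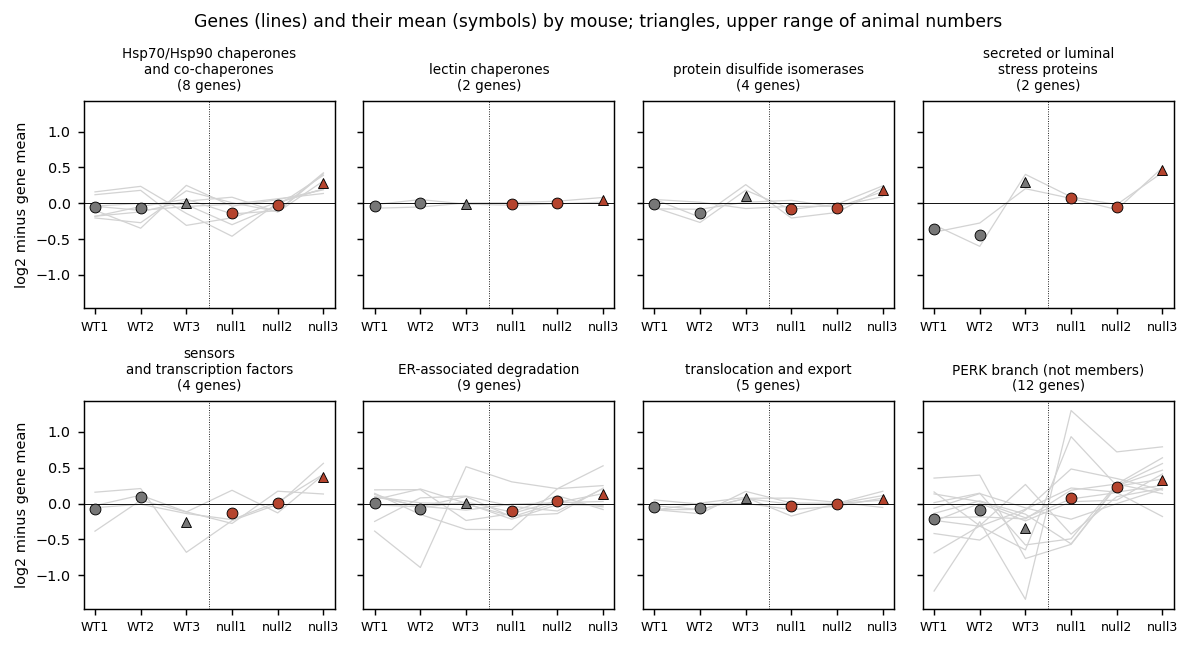
Log2 intensity minus the gene's mean (y axis) in each mouse (x axis) for the members by role and for the 12 PERK arm genes; grey lines are genes, symbols their mean (triangles, upper animal numbers; grey, Runx1-WT; red, Runx1-null). The PERK arm averages -0.21, -0.09 and -0.34 across Runx1-WT mice, and 0.08, 0.23 and 0.34 across Runx1-null mice, whereas the 8 chaperones and co-chaperones average -0.06, -0.06 and -0.0004 across Runx1-WT mice, and -0.13, -0.03 and 0.28 across Runx1-null mice.

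In the other lists, medians were close to 0 and single genes differed more. Other folding genes (23 tested) had a median of -0.03 with 10 above 0. Fkbp14, a prolyl isomerase that acts on collagen, read 840, 683 and 854 across Runx1-WT mice, and 308, 494 and 585 across Runx1-null mice, a difference of -0.82 ± 0.28 (log2, SE; limma, adjusted p = 0.9997). Fkbp14 was lower in every Runx1-null mouse, highest among them in mouse 3. The 7 stromal matrix markers had a median difference of -0.58 with 7 of 7 below 0, but overlapping groups, and were lowest in Runx1-null mouse 3; the median was -0.31 within the lower animal numbers and -1.47 between the mice of the upper ones. Their part in the Fkbp14 values was not tested. Fkbp11, another prolyl isomerase, and Pdia5, a disulfide isomerase, had the largest differences above 0 of this list, 0.70 ± 0.28 and 0.68 ± 0.34, with overlapping groups; they, and Bhlha15 among the stress regulators, were named after their values were seen. Hspa13, an Hsp70 relative of microsomes, was also lower in every Runx1-null mouse, by a difference of -0.16 ± 0.10.

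Other degradation genes (18 tested) had a median of -0.001 with 9 above 0, and the groups overlapped for all 18; the smallest p was that of Rnf139, a ubiquitin ligase, at -0.13 ± 0.09 (log2, SE). Other translocation and glycosylation genes (23 tested) had a median of 0.02 with 12 above 0, and only Rpn1, a subunit of the oligosaccharyltransferase, was free of overlap, at 0.15 ± 0.08. Other export and retrieval genes (20 tested) had a median of 0.03 with 13 above 0, and 3 of 20 were free of overlap (15%, against 5.55% of all genes). There Sec24c and Mcfd2, of COPII vesicles and cargo sorting, were higher in every Runx1-null mouse, by 0.24 ± 0.14 and 0.12 ± 0.10, and Kdelr1, a receptor that returns escaped chaperones, was lower, at -0.12 ± 0.07. Other stress regulators (11 tested) had a median of 0.04 with 7 above 0, and Creb3l4, a membrane-bound relative of ATF6, was lower in every Runx1-null mouse, at -0.77 ± 0.26. Bhlha15, the secretory cell transcription factor MIST1, differed by 0.77 ± 0.57 with overlapping groups.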

How the data were processed

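RNA of FACS-sorted cells was amplified by the authors (NuGEN Ovation V2), hybridized to Affymetrix mouse arrays and normalized with dChip, whose version and model are not given in the sources used here. The deposited values are linear intensities of 45101 probe sets on 6 arrays. A reference table paired 34958 of them with a single symbol and 932 with several, and left 9211 without a name. The pooled 20th percentile (19.335) served as a floor, and values were then put on a log2 scale. A gene entered the fit if its brightest probe set averaged 73.5 or more, the 40th percentile. The fit used limma 3.58.1 in R 4.3.3 (lmFit and trended eBayes, no covariates), with Benjamini-Hochberg adjustment and a threshold of 0.05. Precision is set by the number of arrays, which give no counts. Littermates were used per the methods, but litters are not marked in the labels, so p-values measure the spread between these mice alone.

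The members and lists were chosen with earlier results of these data known. Named with values mouse by mouse were members whose groups did not overlap, the 8 with the smallest unadjusted p, Hspa5, Xbp1, Atf6, Ern1 and the 2 closest to 0, and from each other list the genes without overlap (at most 4 by smallest p) or the 1 with the smallest p; Creld2 was added after its values were seen. Listed genes with no probe set of 1 symbol here included Eif2s1, Sec61g, Prlr, Ly6a and Plin1. Alternatives were other filters, scalings, a pseudocount of 5.04, variance models, array weights, probe set choices, the range of animal numbers, leaving out each mouse, the methods' test and a threshold of 0.1. The fit was tested on simulated data. Promoters were searched with Python 3.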

Additional observations from a re-analysis of the deposited data

How the results depend on the processing

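Under every alternative run, 0 members and 0 genes passed an adjusted p under 0.05 for genotype (limma; the test named in the methods included), and the median difference of the members ran from -0.03 to 0.13, so its sign depended on the mice. At an unadjusted p under 0.05, leaving out 1 mouse gave up to 3 members, without Runx1-WT mouse 3, and blocking on animal number range gave 2. The number of members whose groups did not overlap was 0 with median scaling (3.46% of all genes), 0 without the probe sets of the _s_at and _x_at types (5.53%), 1 with the mean of all probe sets of a gene (5.71%) and 19 within the lower animal numbers (50.5%). Leaving out 1 mouse gave 3 to 12: 12 without Runx1-WT mouse 3 (25.7% of all genes), and, with Runx1-null mouse 1, 2 or 3 left out, 6 (11%), 7 (12%) and 5 (19.9%). The cause was not tested, other than that fewer mice overlap less.

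Of 611 recomputed differences of single members, 68 had the opposite sign, in 25 members; Hspa5, Hsp90b1, Hyou1, Calr, Pdia3, Manf, Creld2, Atf6b and Sec61b had the same sign under every alternative. With median scaling the difference was 0.077 for Canx, 0.012 for Pdia4, 0.026 for Edem2, 0.030 for Sel1l, 0.069 for Selk and 0.061 for Ssr3. Within the lower animal numbers the difference was -0.25 for Dnajb9, -0.012 for Sdf2l1, -0.14 for Sil1, -0.077 for P4hb, -0.31 for Ern1, -0.068 for Xbp1, -0.10 for Atf6, -0.073 for Herpud1, -0.027 for Derl2 and -0.042 for Sec24d. Between the mice of the upper animal numbers the difference was -0.062 for Dnajb11, 0.34 for Dnajc3, 0.027 for Canx, 0.19 for Edem1, 0.22 for Edem2, -0.26 for Derl3, 0.040 for Selk, -0.12 for Sec61a1, -0.13 for Ssr1 and 0.074 for Ssr3. With array weights the difference was -0.070 for Dnajb9, -0.0074 for Sil1, -0.063 for P4hb, -0.059 for Ern1, 0.033 for Sel1l, -0.020 for Derl2 and 0.018 for Selk. With the mean of all probe sets the difference was 0.019 for Edem1 and -0.030 for Derl2. Without the _s_at and _x_at types the difference was 0.064 for Derl1. Leaving out 1 mouse, it ran from -0.15 to 0.11 for Dnajb9, -0.010 to 0.29 for Dnajb11, -0.31 to 0.019 for Dnajc3, -0.069 to 0.22 for Sdf2l1, -0.14 to 0.20 for Sil1, -0.026 to 0.0087 for Canx, -0.041 to 0.032 for P4hb, -0.21 to 0.030 for Pdia4, -0.013 to 0.21 for Pdia6, -0.080 to 0.38 for Ern1, -0.033 to 0.28 for Xbp1, -0.063 to 0.16 for Atf6, -0.19 to 0.0049 for Edem2, -0.070 to 0.11 for Syvn1, -0.018 to 0.076 for Derl2, -0.10 to 0.066 for Selk, -0.023 to 0.13 for Sec61a1, -0.0095 to 0.069 for Ssr1, -0.076 to 0.0048 for Ssr3 and -0.085 to 0.088 for Sec24d.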
